A study of Mus musculus with 12 samples.

Results

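The genes described here are 9 that a macrophage uses to release, take up, carry and activate long-chain fatty acids: Lpl, Slc27a1, Slc27a4, Fabp4, Fabp5, Acsl1, Acsl3, Acsl4 and Acsl5. They were chosen by symbol and each had a single entry in the table, so they are 9 of 31719 gene symbols, and all 9 passed the filter for testing. RNA was sequenced from RAW264.7, a mouse macrophage-like cell line listed as wild type, in 12 libraries. The groups held 3 libraries each: LPS at 50 ng/ml plus an anti-CD36 antibody diluted 1 in 100 (LPS+anti-CD36), LPS alone at 50 ng/ml, the antibody alone at 1 in 100 (anti-CD36), and no treatment. LPS (lipopolysaccharide) comes from the outer membrane of Gram-negative bacteria and activates macrophages through TLR4. CD36 binds fatty acids and oxidised lipoproteins at the cell surface. The labels name no treatment time and no control antibody, and all libraries come from 1 cell line. Whether replicate libraries stem from separate cultures is not stated, so each p-value reflects the spread among the libraries at hand, which may be technical.

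Fatty acids reach a macrophage from lipoproteins and from free fatty acid. Lipoprotein lipase, encoded by Lpl, is secreted and splits triglyceride in lipoproteins, and the surface receptor CD36 and the fatty acid transport proteins of the Slc27a family bring the released fatty acid into the cell. Fatty acid binding proteins then carry it through the cytosol, and long-chain acyl-CoA synthetases of the Acsl family join it to coenzyme A, after which it can be oxidised or built into phospholipids and triglycerides. In macrophages FABP4 and FABP5 are known as the main cytosolic carriers, and ACSL4 is known for its preference for arachidonic acid and other polyunsaturated fatty acids.

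Library depth, recovered from the steps between the FPKM values, ran from 30070450 to 54137810 fragments, and 14212 to 14878 genes were above 0 per library. FPKM is a fragment count scaled to the gene's length and the library's depth. Every value of the 9 genes was a whole number of fragments, from 176 for Fabp4 in its lowest library to 48914 for Lpl in its highest. Of 9 macrophage markers, 8 were above 1 FPKM, such as Lyz2 and Csf1r, while the receptor kinase Mertk was below 1 FPKM in every library. Lpl and Fabp4 are also typical of fat cells. Of 7 adipocyte markers 4 (Adipoq, Cidec, Lep and Pck1) were listed at 0 in every library, and the summed level of the 7 was 1.54 to 1.80 FPKM in LPS+anti-CD36, 0.150 to 0.411 in LPS, 0 to 0.0472 in anti-CD36 and 0 to 0.0421 in untreated libraries. Most of that sum was Retn, which averaged 1.68 FPKM in LPS+anti-CD36 and 0.241 FPKM in LPS libraries.

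The model length behind an FPKM value matters for comparing these genes with each other. The values fit a length made of every annotated exon of a gene, including transcripts that retain introns. For Fabp4 that length was 4489 bases, 5.01 times the 896 bases of its main coding transcript, and for Fabp5 it was 3567 bases, 3.61 times 987. The same ratio was 2.69 for Acsl1, 2.55 for Lpl and 2.09 for Slc27a1, and between 1.02 and 1.15 for the other 4. If all fragments came from the main coding transcript, the level of Fabp4 would be 94.0 FPKM in LPS libraries and 7.58 FPKM in untreated libraries in place of 18.8 and 1.51. A ratio of FPKM between groups does not depend on this length.

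In LPS libraries the order of levels was Fabp5 (171 ± 33.1 FPKM; SD, n = 3), Lpl, Acsl4, Acsl5, Slc27a1, Fabp4, Acsl3, Slc27a4 and Acsl1, and of these neighbours only Acsl5 and Slc27a1 overlapped. LPS+anti-CD36 libraries had the same order, with only Slc27a1 and Fabp4 overlapping. Untreated libraries also had Fabp5 on top, at 136 ± 26.0 FPKM. Lpl (49.1 ± 10.0 FPKM), Acsl5 (45.3 ± 7.34), Acsl4 (33.6 ± 7.37) and Slc27a1 (26.8 ± 1.43) followed without reaching Fabp5, and neighbours among these 4 overlapped. Acsl3 stood at 14.9 ± 3.55 FPKM, Slc27a4 at 4.39 ± 0.490, Acsl1 at 3.54 ± 0.350 and Fabp4 at 1.51 ± 0.390, none overlapping its neighbour. Anti-CD36 libraries had the untreated order but for Slc27a1, which stood above Acsl4, and there only Lpl and Acsl5 overlapped. Acsl4 thus stood above Acsl5 in both groups with LPS and below it in both groups without, and Fabp4 held the sixth place with LPS and the ninth without. These places hold for the exon length of the table. At the length of the main coding transcripts Fabp4 would be the third with LPS, above Acsl4 (63.5 FPKM in LPS libraries), and the eighth in untreated libraries, above Slc27a4 (4.78 FPKM).

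**Figure D1:**
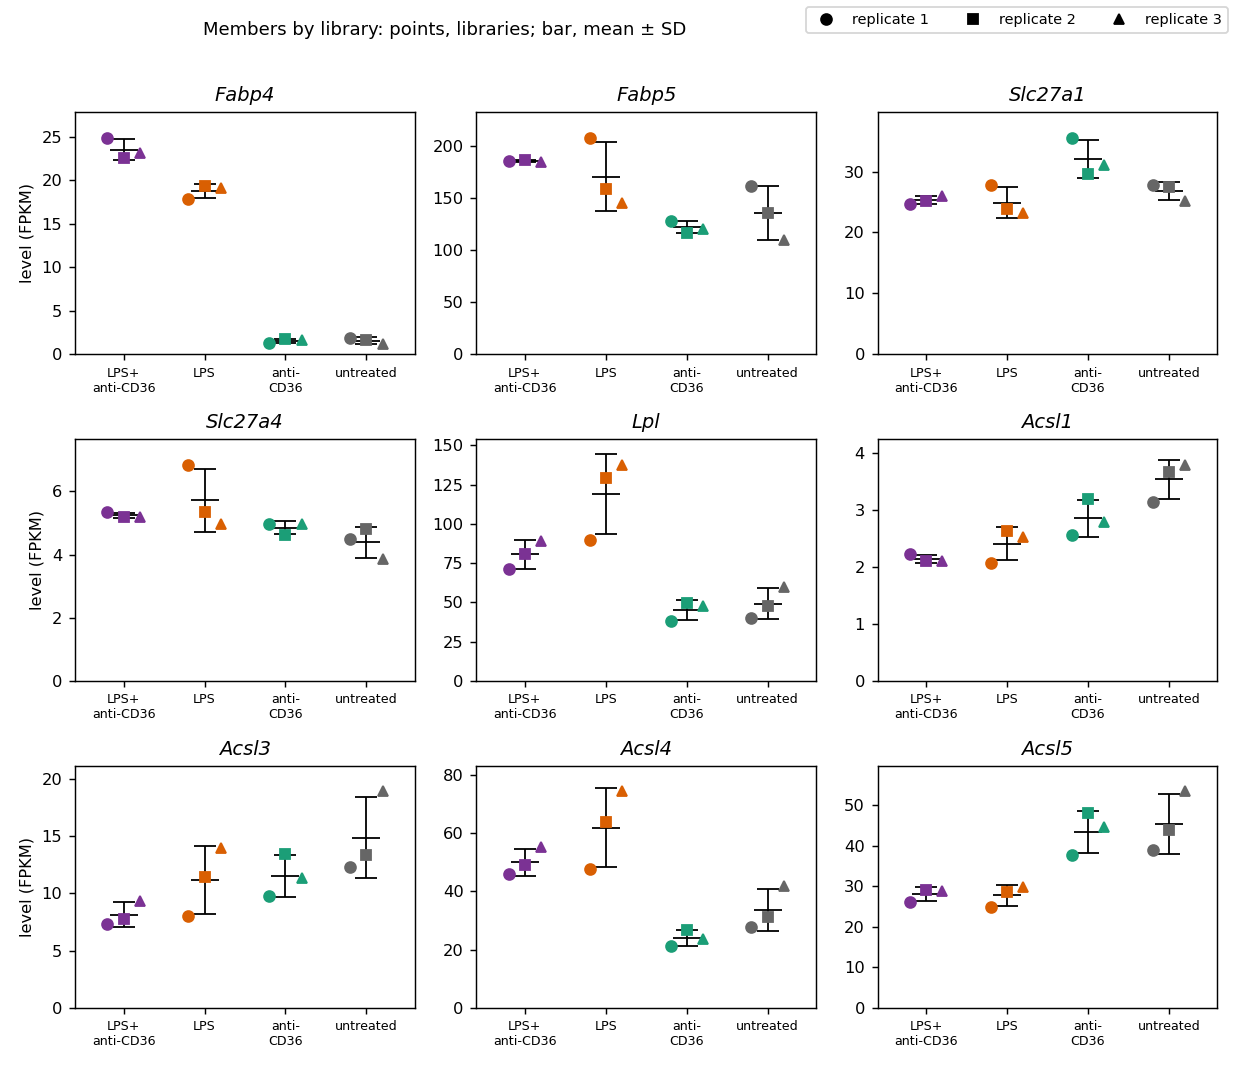
Level of each of the 9 genes in FPKM (vertical axis, from 0, own scale per gene) in the 12 libraries, by group; points are libraries with the symbol giving the replicate number, and bars are the mean ± SD of 3 libraries. Fabp4, Lpl and Acsl4 are higher and Acsl5 is lower in both LPS-treated groups than in both groups without LPS, with no overlap.

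LPS alone was compared with no treatment to show how these genes respond to LPS. A gene is called here when its adjusted p is under 0.05 (limma on log2(FPKM + 1), Benjamini-Hochberg over all genes tested). Of the 9 genes 4 rose (Fabp4, Lpl, Acsl4 and Slc27a4) and 2 fell (Acsl1 and Acsl5), while Fabp5, Slc27a1 and Acsl3 were not called. Over all 10276 genes tested, 16.6% were called higher and 33.1% lower. The median log2 change was 0.31 over the 9 genes and −0.14 over all genes, and median-of-ratios scaling put the median of all genes at −0.01 and the higher share of all calls at 50.7% in place of 33.4%. The 6 called genes were also those whose groups did not overlap, against 49.6% of all genes tested. RNA from bulk culture does not tell fewer cells expressing a gene apart from less RNA per cell.

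Fabp4, the carrier also known as aP2, stood at 17.9, 19.3 and 19.1 FPKM in LPS libraries and at 1.85, 1.60 and 1.09 FPKM in untreated libraries. The groups were far apart, and the ratio of means was 12.4. Its log2 change was 2.99 ± 0.11 (SE, adjusted p = 1.45e-09), or 3.13 relative to the median of all genes, and its p ranked 69th of the 10276. This change is on the log2(FPKM + 1) scale, which understates it for a gene this low, and with a pseudocount of 0.1 it was 3.58. Counting error was 1.41 to 1.96% in the LPS-treated libraries and 4.71 to 7.54% in those without LPS. The summed adipocyte markers given above also stood higher with LPS, while 4 of the 7 were at 0 throughout. So did the sum of 6 muscle markers, at 1.67 to 1.78 FPKM in LPS+anti-CD36, 0.634 to 0.853 in LPS, 0.132 to 0.240 in anti-CD36 and 0.0939 to 0.129 in untreated libraries, nearly all of it Tnnt2, with Actn2 and Acta1 at 0 throughout. The sum of 6 endothelial markers ran from 0.190 to 0.701 FPKM over all libraries. Its Pecam1 averaged 0.451 FPKM in LPS+anti-CD36, 0.268 in LPS, 0.158 in anti-CD36 and 0.135 in untreated libraries. Cdh5 of the same list averaged 0.0690 FPKM in LPS+anti-CD36, 0.130 in LPS, 0.0957 in anti-CD36 and 0.130 in untreated libraries. Kdr averaged higher and Vwf lower in both groups with LPS, at 0.0425 FPKM or less in every library. Tek was at 0 in most libraries and Emcn in all. The part of these levels in the change of Fabp4 was not tested.

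Fabp5, its close relative, stood at 208, 159 and 145 FPKM in LPS libraries and at 162, 136 and 109.6 FPKM in untreated libraries. The groups overlapped, with a log2 change of 0.33 ± 0.15 (95% interval 0.01 to 0.65, adjusted p = 0.0846). With median-of-ratios scaling the change was 0.48 and called (adjusted p = 0.0385), and it was also called with TPM scaling (0.0261), without LPS replicate 3 (0.038) and without untreated replicate 1 (0.0228). Fabp4 made up 10.1 ± 1.95% of the pair in LPS libraries and 1.09 ± 0.0977% in untreated libraries (SD, n = 3 each). Of the distinct stretches of 50 bases in the Fabp5 transcripts 5.48% also occur in other annotated genes, chiefly the predicted genes Gm6166 and Gm14328. A small part of its count could thus be split or lost. The same share was 9.23% for Acsl1 (chiefly with Gm45244), 4.78% for Acsl5 (chiefly with Zdhhc6) and 3.59% for Acsl3. It was 1.43% for Slc27a1 and 1.40% for Lpl, while Fabp4, Slc27a4 and Acsl4 share none.

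Lpl stood at 89.9, 129 and 138 FPKM in LPS libraries and at 39.8, 48.0 and 59.7 FPKM in untreated libraries. Every LPS library was above every untreated one, with a log2 change of 1.25 ± 0.18 (adjusted p = 0.00014). Its protein is secreted.

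Among the transporters, Slc27a4 (fatty acid transport protein FATP4) was called higher, at 5.72 ± 0.993 FPKM in LPS and 4.39 ± 0.490 FPKM in untreated libraries (log2 change 0.31 ± 0.10, adjusted p = 0.0253). This was the smallest change among the called genes, and it was not called without LPS replicate 1 (adjusted p = 0.0764), without untreated replicate 3 (0.0884) or in a fit of these groups alone (0.11). Slc27a1 (FATP1) stood at 24.9 ± 2.48 FPKM in LPS and 26.8 ± 1.43 FPKM in untreated libraries (log2 change −0.11, 95% interval −0.31 to 0.09, adjusted p = 0.365), and with median-of-ratios scaling the change was 0.04.

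The 4 synthetases went in different directions. Acsl4 stood at 47.7, 63.9 and 74.4 FPKM in LPS libraries and at 27.8, 31.2 and 41.9 FPKM in untreated libraries, with no overlap (log2 change 0.86 ± 0.17, adjusted p = 0.00152). Acsl5, a synthetase of mitochondrial and ER membranes, stood at 24.8, 28.4 and 29.9 FPKM in LPS libraries and at 38.9, 43.7 and 53.3 FPKM in untreated libraries, again with no overlap and lower with LPS (log2 change −0.68 ± 0.13, adjusted p = 0.00078). Acsl1, the synthetase induced by PPARs in liver and fat, stood at 2.08, 2.63 and 2.52 FPKM in LPS libraries and at 3.14, 3.67 and 3.80 FPKM in untreated libraries. It was lower in every LPS library (log2 change −0.41 ± 0.09, adjusted p = 0.00286). Acsl3, which is found on the ER and on lipid droplets, stood at 11.2 ± 3.00 FPKM in LPS and 14.9 ± 3.55 FPKM in untreated libraries and was not called (log2 change −0.39, 95% interval −0.82 to 0.04, adjusted p = 0.121). Without LPS replicate 3 its change was −0.56 and called (adjusted p = 0.0385).

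Of the 9 genes 6 matched RefSeq promoter windows (build GRCm38.p6). Fabp4, Fabp5 and Lpl did not. The 250 bases before the RefSeq start site are shown for Acsl4 (chrX:142390536-142390785, minus strand) and Acsl5 (chr19:55253119-55253368, plus strand), the pair of synthetases that moved in opposite directions with LPS. The Acsl4 window ends at the GENCODE start of the gene. The Acsl5 window ends at the start of its principal coding transcript, position 55253369, which lies 1431 bases inside the GENCODE gene because other transcripts start further upstream. Each is written 5′ to 3′ toward the gene, with motif matches in capitals.
Acsl4: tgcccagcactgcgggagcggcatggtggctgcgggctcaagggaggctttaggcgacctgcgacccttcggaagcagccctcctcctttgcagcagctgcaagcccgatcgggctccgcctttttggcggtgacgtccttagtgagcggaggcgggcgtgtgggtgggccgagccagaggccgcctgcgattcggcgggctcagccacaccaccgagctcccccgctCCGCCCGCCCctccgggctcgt
Acsl5: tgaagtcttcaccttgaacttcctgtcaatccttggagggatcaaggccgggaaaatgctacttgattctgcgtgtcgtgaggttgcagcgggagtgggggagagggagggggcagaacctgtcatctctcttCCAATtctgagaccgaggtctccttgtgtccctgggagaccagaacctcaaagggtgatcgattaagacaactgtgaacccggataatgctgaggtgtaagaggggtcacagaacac
The motifs searched on both strands were the GC box GGGCGG, the TATA box TATAAA, the E-box CACGTG, the AP-1 site TGANTCA, the nuclear receptor half-site AGGTCA, the CCAAT box CCAAT and the sterol element core TCACNCCAC. The Acsl4 window held 2 overlapping GC boxes, a motif present in 32.7% of the 32851 promoter windows, and was 70.8% GC. The Acsl5 window held 1 CCAAT box, present in 33.9% of windows, and was 52.8% GC. Acsl3 had 5 GC boxes and 1 CCAAT box in its window, and Slc27a4 had 2 GC boxes. Of the 2 Acsl1 windows, the upstream one held 4 GC boxes and the other 2 CCAAT boxes and 1 sterol element core, which 1.05% of windows hold. Of the 3 Slc27a1 windows, one held 1 CCAAT box, one 1 GC box, and one 3 GC boxes, 1 CCAAT box and 1 E-box, which 6.02% of windows hold. No GENCODE transcript starts at the RefSeq start site of any of these 3 Slc27a1 windows.

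All 9 are protein-coding genes in GENCODE M21, whose GRCm38 positions are given here since the table has none. Fabp5 (3567 bases of exons, plus strand) and Fabp4 (minus strand) lie close together on chromosome 3, at chr3:10012548-10016607 and chr3:10204088-10208576. Chromosome 8 carries Acsl1 (chr8:46471037-46536051), Lpl (chr8:68880491-68907448) and Slc27a1 (chr8:71568882-71587302), all on the plus strand. Slc27a4 lies at chr2:29802634-29817522 and Acsl3 at chr1:78657825-78707743, both on the plus strand. Acsl4 lies at chrX:142317993-142390535 on the minus strand and Acsl5 at chr19:55251938-55297720 on the plus strand.

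Shares within the 4 synthetases do not depend on how a library is scaled. Acsl4 made up 59.8 ± 1.94% of their summed FPKM in LPS libraries and 34.4 ± 0.956% in untreated libraries (SD, n = 3 each). Acsl5 made up 27.2 ± 2.69% in LPS and 46.7 ± 1.30% in untreated libraries, and Acsl3 10.7 ± 0.947% in LPS and 15.2 ± 0.780% in untreated libraries. The summed level of the 4 was 103 ± 19.2 FPKM in LPS and 97.4 ± 18.5 FPKM in untreated libraries, so the groups overlapped in the sum and were apart in its makeup. Acsl1 made up 2.36 ± 0.235% in LPS and 3.68 ± 0.407% in untreated libraries, and its share would be higher if its fragments came from the main coding transcript, which is shorter than its gene model.

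**Figure D2:**
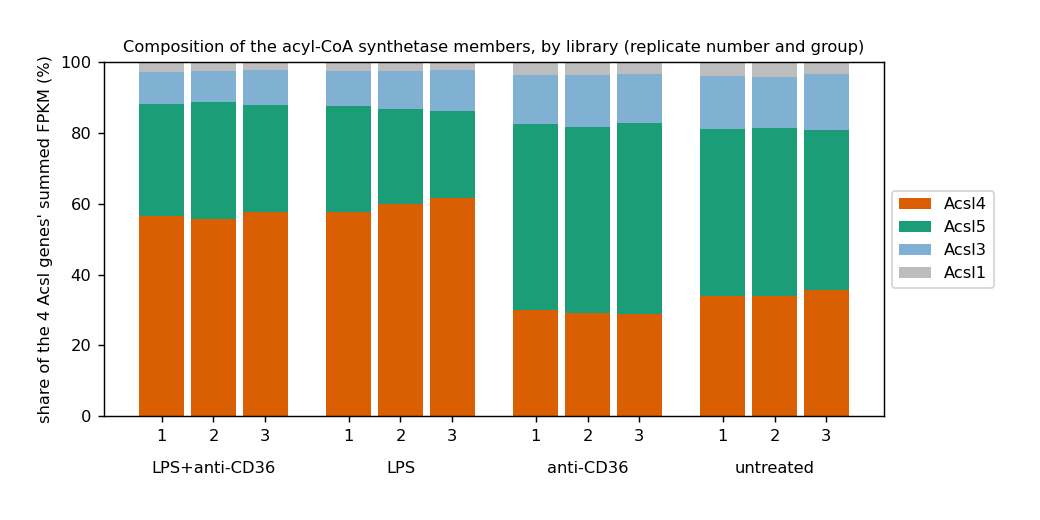
Share of each of the 4 synthetases in their summed FPKM (vertical axis, percent), one stacked bar per library, grouped by treatment. Acsl4 takes 55.8 to 61.6% in the 6 libraries with LPS and 28.8 to 35.5% in the 6 without.

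LPS+anti-CD36 was compared with anti-CD36 to see the LPS response in the presence of the antibody. The libraries are other than those above. Of the 9 genes 4 rose (Fabp4, Fabp5, Lpl and Acsl4) and 3 fell (Slc27a1, Acsl1 and Acsl5). Over all genes tested 16.3% were called higher and 31.3% lower, and the median was −0.12, or −0.01 with median-of-ratios scaling, which put the higher share of all calls at 50.3% in place of 34.2%. All 9 genes had the same sign in the 2 LPS comparisons, as did 87.1% of all genes tested. Of the 9, 5 were called the same way in both, against 40.7% of all genes: Fabp4, Lpl and Acsl4 higher, Acsl1 and Acsl5 lower. All 9 had groups that did not overlap, against 63.9% of all genes.

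Fabp4 stood at 24.9, 22.5 and 23.2 FPKM in LPS+anti-CD36 libraries and at 1.29, 1.72 and 1.58 FPKM in anti-CD36 libraries (log2 change 3.28 ± 0.11, adjusted p = 6.22e-10). Lpl stood at 71.2, 81.1 and 89.3 FPKM in LPS+anti-CD36 libraries and at 37.8, 49.6 and 47.4 FPKM in anti-CD36 libraries (0.83 ± 0.18, adjusted p = 0.00286). Both were again well above the level without LPS. Acsl4 stood at 46.0, 49.1 and 55.1 FPKM in LPS+anti-CD36 libraries and at 21.3, 26.7 and 23.7 FPKM in anti-CD36 libraries (1.04 ± 0.17, adjusted p = 0.000425). Acsl5 stood at 26.0, 29.0 and 28.9 FPKM in LPS+anti-CD36 libraries and at 37.6, 48.0 and 44.5 FPKM in anti-CD36 libraries (−0.61 ± 0.13, adjusted p = 0.0018). The synthetase shares moved as they did without the antibody, with Acsl4 at 56.7 ± 0.989% in LPS+anti-CD36 and 29.3 ± 0.563% in anti-CD36 libraries, and Acsl5 at 31.7 ± 1.37% in LPS+anti-CD36 and 53.1 ± 0.799% in anti-CD36 libraries.

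Fabp5 stood at 186 ± 0.977 FPKM in LPS+anti-CD36 and 122 ± 5.68 FPKM in anti-CD36 libraries (log2 change 0.61 ± 0.15, adjusted p = 0.00524). It was called here and not in LPS versus untreated, but the difference between the LPS changes was itself not called (0.28, 95% interval −0.18 to 0.73, adjusted p = 0.931). Slc27a1 fell, at 25.3 ± 0.611 FPKM in LPS+anti-CD36 and 32.1 ± 3.11 FPKM in anti-CD36 libraries (−0.33 ± 0.09, adjusted p = 0.0111). Relative to the median of all genes that change was −0.21, and with median-of-ratios scaling it was −0.19 and not called (adjusted p = 0.18). Acsl1 fell to 2.15 ± 0.0696 FPKM in LPS+anti-CD36, against 2.85 ± 0.318 FPKM in anti-CD36 libraries (−0.29 ± 0.09, adjusted p = 0.0223). It was not called without any one of LPS+anti-CD36 replicates 2 and 3 (adjusted p = 0.0661 and 0.0634) and anti-CD36 replicates 2 and 3 (0.0908 and 0.0509), with median-of-ratios scaling (0.0694) or with TPM scaling (0.054). Acsl3 stood at 8.15 ± 1.09 FPKM in LPS+anti-CD36 and 11.5 ± 1.85 FPKM in anti-CD36 libraries (log2 change −0.45, adjusted p = 0.0814). It was called in a fit of these groups alone (0.0123) and without LPS replicate 1 (0.0352) or untreated replicate 3 (0.0492), neither of which is in the comparison. Slc27a4 stood at 5.24 ± 0.0865 FPKM in LPS+anti-CD36 and 4.85 ± 0.201 FPKM in anti-CD36 libraries (adjusted p = 0.491).

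**Figure D3:**
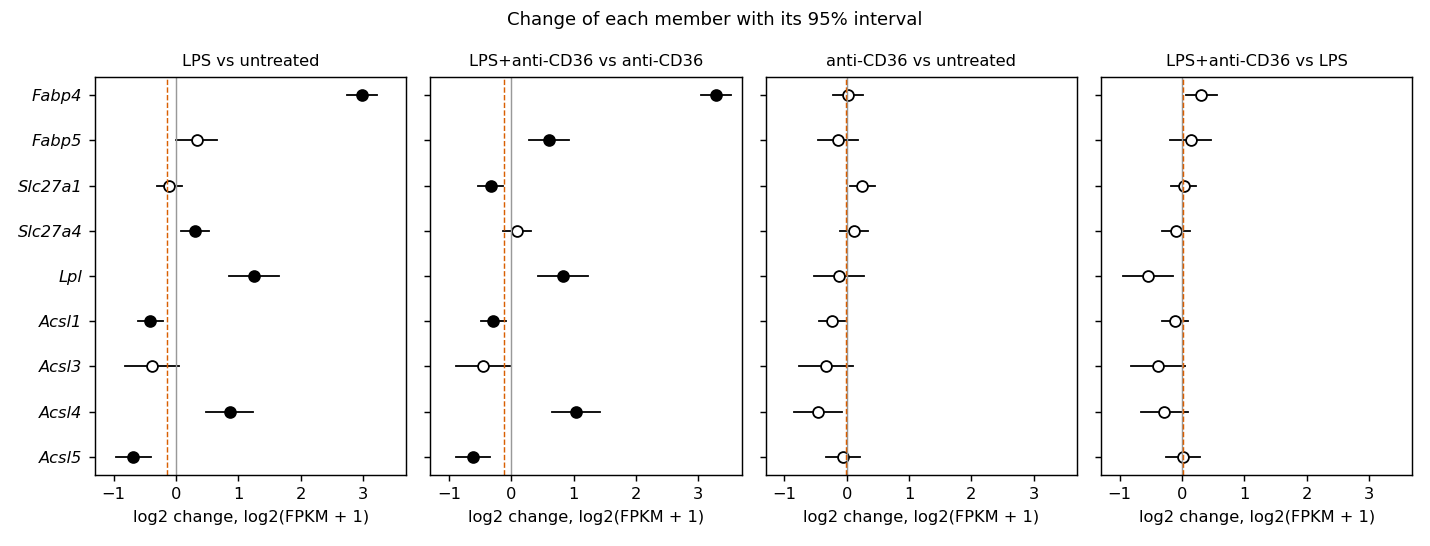
Log2 change of each of the 9 genes on the log2(FPKM + 1) scale (horizontal axis) in the 4 pairwise comparisons; lines are 95% intervals, filled points are called at an adjusted p under 0.05, and the dashed line is the median of all genes tested. With LPS 6 and 7 of the 9 are called, and for the antibody none is.

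Anti-CD36 alone was compared with no treatment to show what the antibody changed without LPS. None of the 9 genes was called by limma, while 0.341% of all genes were (35 of 10276). Of those calls 42.9% were higher, against 32.4% with median-of-ratios and 58.3% with TPM scaling. An unadjusted p under 0.05 was reached by 3 of the 9 (Slc27a1, Acsl4 and Acsl1) and by 19.2% of all genes. Groups did not overlap for 2 of the 9, Slc27a1 and Acsl4, against 22.7% of all genes. Slc27a1 stood at 35.6, 29.6 and 31.2 FPKM in anti-CD36 libraries and at 27.9, 27.4 and 25.2 FPKM in untreated libraries (log2 change 0.25, 95% interval 0.05 to 0.45, adjusted p = 0.193). Acsl4 stood at 23.9 ± 2.73 FPKM in anti-CD36 and 33.6 ± 7.37 FPKM in untreated libraries (−0.46, 95% interval −0.84 to −0.08, adjusted p = 0.203). As a share of the synthetases it was 28.8 to 29.9% in anti-CD36 libraries and 33.8 to 35.5% in untreated libraries, apart from each other, while Acsl5 made up 52.5 to 54.0% in anti-CD36 libraries and 45.2 to 47.5% in untreated libraries. No test was made of these shares, and the GC and length trend described below was not removed from them. Of the 4 synthetases Acsl4 has the lowest GC content (39.0%) and Acsl5 the highest (47.6%). Fabp4, Fabp5 and Lpl had log2 changes of 0.02 (95% interval −0.22 to 0.26), −0.14 (−0.46 to 0.19) and −0.12 (−0.52 to 0.29).

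LPS+anti-CD36 against LPS shows the antibody's changes in LPS-treated cells. Here too limma called none of the 9 genes, while 15.5% of all genes were called, 47.4% of them higher, against 33.2% with TPM scaling. An unadjusted p under 0.05 was reached by 2 of the 9 and by 33.8% of all genes, and groups did not overlap for the same 2 of the 9, Fabp4 and Lpl, against 36.1% of all genes. Fabp4 was higher in all 3 LPS+anti-CD36 libraries (23.5 ± 1.24 FPKM) than in all 3 LPS libraries (18.8 ± 0.757 FPKM), with a log2 change of 0.31 (95% interval 0.07 to 0.55, adjusted p = 0.0772). Lpl was lower in all 3 LPS+anti-CD36 libraries (80.5 ± 9.07 FPKM) than in the LPS libraries (119 ± 25.5 FPKM), with a log2 change of −0.54 (−0.94 to −0.14, adjusted p = 0.0678). The lowest LPS library (89.9 FPKM) lay close to the highest with both (89.3 FPKM). Without LPS replicate 1 the change of Lpl was −0.73 and called (adjusted p = 0.00906), as were those of Acsl3 (−0.59, adjusted p = 0.0272) and Acsl4 (−0.46, adjusted p = 0.0432). Without untreated replicate 3, which enters here through the estimate of the spread, Lpl (adjusted p = 0.0432) and Fabp4 (0.026) were called. With the replicate number as a block in the fit, Lpl (adjusted p = 0.00129), Acsl3 (0.0278) and Fabp4 (0.0424) were called. Median-of-ratios scaling called Lpl (adjusted p = 0.0485). Acsl5 (0.01, 95% interval −0.26 to 0.29) and Slc27a1 (0.03, −0.17 to 0.23) had estimates near 0.

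The interaction, the LPS change with the antibody minus that without, was called for none of the 9 genes by limma, while 1.28% of all genes were called. None of the 9 had an unadjusted p under 0.05, against 8.6% of all genes. Its largest values were for Lpl (−0.42, 95% interval −0.99 to 0.15, adjusted p = 0.801) and Fabp4 (0.29, −0.05 to 0.64, adjusted p = 0.706).

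Changes with the antibody moved with transcript composition over the whole table. Across 10093 genes, which are not independent replicates, the log2 change in anti-CD36 versus untreated had a Spearman correlation of 0.55 with GC content and −0.51 with gene length, and in LPS+anti-CD36 versus LPS of 0.37 and −0.50. The values for LPS versus untreated were −0.07 and 0.05. Among the 9 genes Acsl4 had the lowest GC content (39.0%) and the lowest change with anti-CD36 alone, and Slc27a1 (56.9%) and Slc27a4 (56.8%) had the highest of both. With the trend of each library on GC content and length removed, the change with anti-CD36 alone was −0.29 for Acsl4, 0.16 for Slc27a1, −0.01 for Slc27a4 and −0.02 for Acsl1 (adjusted p = 0.076, 0.107, 0.944 and 0.88). In LPS+anti-CD36 versus LPS the removal left −0.28 for Lpl, now called (adjusted p = 0.0385), −0.18 for Slc27a4, also called (0.0349), and 0.39 for Fabp4 (0.0526). The LPS changes were nearly as before, at 2.96 for Fabp4, 1.21 for Lpl, 0.86 for Acsl4 and −0.63 for Acsl5 in LPS versus untreated. With the trend removed, Fabp5 (0.35, adjusted p = 0.0418) and Acsl3 (−0.42, 0.0154) were called there too, and Acsl3 (−0.50, 0.00613) and Slc27a4 (0.19, 0.00976) in LPS+anti-CD36 versus anti-CD36.

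**Figure D4:**
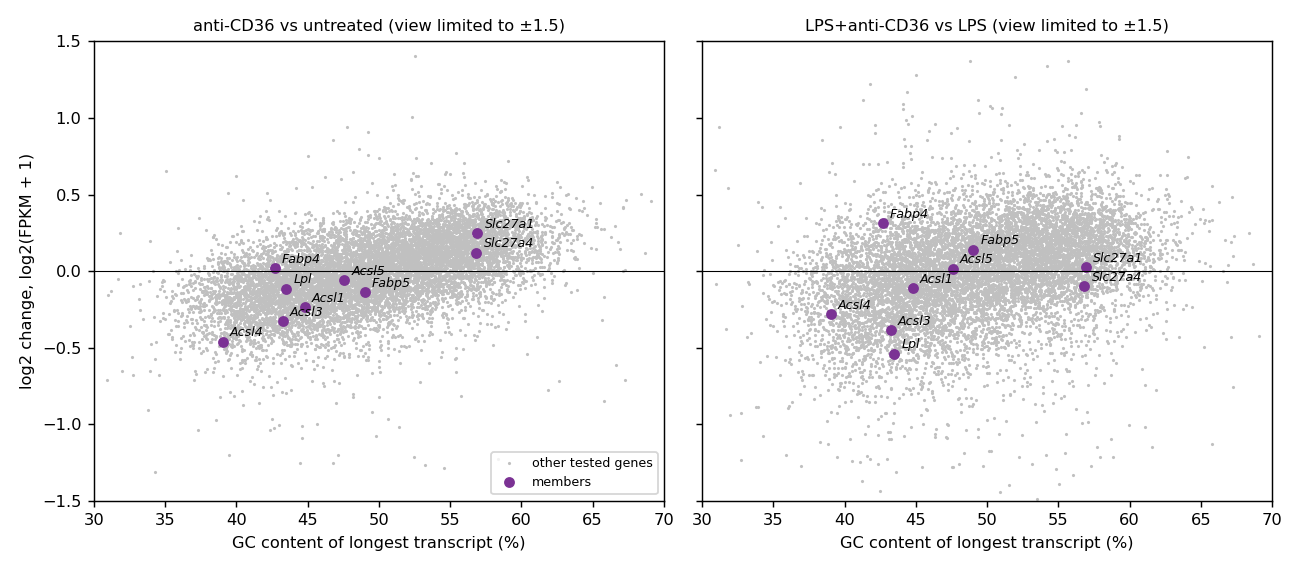
Log2 change on the log2(FPKM + 1) scale (vertical axis) against GC content of the longest annotated transcript in percent (horizontal axis) for anti-CD36 versus untreated (left) and LPS+anti-CD36 versus LPS (right); grey points are the other tested genes, purple points the 9 genes, and 18 genes lie outside the right view. In the left panel Acsl4, at 39.0% GC, is lowest of the 9 and Slc27a1, at 56.9%, is highest.

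The same library number was lowest within each group for several of the genes. For Lpl, Acsl3, Acsl4 and Acsl5 replicate 1 was the lowest library in all 4 groups, and for Fabp5 and Slc27a1 it was the highest in 3 of 4 groups. The labels give no batch, and the shares within the synthetases varied less than the levels: the SD of the Acsl4 share was 0.956 percentage points on 34.4% in untreated libraries, while the SD of its level was 7.37 FPKM on 33.6 FPKM.

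The antibody's target Cd36, the membrane receptor that takes up fatty acids, stood at 11.2 ± 0.974 FPKM in LPS+anti-CD36, 5.86 ± 1.47 in LPS, 0.379 ± 0.111 in anti-CD36 and 0.170 ± 0.0405 in untreated libraries. Its LPS change was in the direction of Fabp4 and Lpl, and it was called higher in LPS+anti-CD36 versus LPS (log2 change 0.85, adjusted p = 0.00214), where none of the 9 was.

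Of 69 other genes of fatty acid uptake, binding, activation and their control, 26 were expressed highly enough to be tested. In LPS versus untreated 8 of the 26 rose and 5 fell, where 16.6% of all genes rose and 33.1% fell, and the median log2 change was −0.01 over the 26 and −0.14 over all genes. In LPS+anti-CD36 versus anti-CD36 8 rose and 7 fell, where 16.3% of all genes rose and 31.3% fell, with medians of −0.02 over the 26 and −0.12 over all genes. In anti-CD36 versus untreated limma called none of the 26, where 0.341% of all genes were called. Of the 26, 4 had an unadjusted p under 0.05, as did 19.2% of all genes. The medians were 0.12 over the 26 and −0.01 over all genes. In LPS+anti-CD36 versus LPS 3 rose and 2 fell, a share near the 15.5% of all genes called, with medians of 0.09 over the 26 and 0.02 over all genes. Most of the untested relatives were at or near 0: Slc27a2, Slc27a5 and Slc27a6 reached at most 0.0446 FPKM, Slc27a3 reached 0.992 FPKM, Acsl6 was listed at 0, and of the other binding proteins only Fabp3 was tested. Gpihbp1, which anchors lipoprotein lipase on capillary walls, was listed at 0 in every library.

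Angptl4, a secreted inhibitor of lipoprotein lipase, fell to 0.346 ± 0.160 FPKM in LPS, against 2.31 ± 0.741 FPKM in untreated libraries (log2 change −1.28, adjusted p = 5.45e-05), and to 0.424 ± 0.163 FPKM in LPS+anti-CD36, against 2.47 ± 0.457 FPKM in anti-CD36 libraries (−1.29, adjusted p = 5.37e-05). The log2(FPKM + 1) scale understates these changes for a gene this low, and less strongly those of Acsbg1, Ppard and Ppargc1b below. Acsbg1, another acyl-CoA synthetase, rose to 4.15 ± 0.291 FPKM in LPS, against 1.74 ± 0.370 FPKM in untreated libraries (0.92, adjusted p = 2.73e-05). It was also called higher in LPS+anti-CD36 than in anti-CD36 libraries, at 2.19 ± 0.304 FPKM in the last (1.13, adjusted p = 5.20e-06), and was higher in LPS+anti-CD36 at 5.95 ± 0.454 FPKM than in LPS (0.43, adjusted p = 0.0234). Among the thioesterases, which split acyl-CoA again, Acot13 fell to 16.4 ± 2.13 FPKM in LPS, against 34.1 ± 2.96 FPKM in untreated libraries (−1.02, adjusted p = 5.93e-06), and to 18.2 ± 0.715 FPKM in LPS+anti-CD36, against 37.4 ± 2.33 FPKM in anti-CD36 libraries (adjusted p = 7.30e-06). Acot9 rose to 39.1 ± 3.10 FPKM in LPS+anti-CD36, against 24.7 ± 0.986 FPKM in anti-CD36 libraries (0.64, adjusted p = 8.58e-05). It rose likewise to 40.0 ± 3.07 FPKM in LPS, against 26.6 ± 1.90 FPKM in untreated libraries (0.57, adjusted p = 0.000196). The thioesterases as a list were thus mixed, with 2 of 6 higher and 1 lower in LPS versus untreated.

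The nuclear receptor Ppard, which binds fatty acids, rose to 5.64 ± 1.01 FPKM in LPS, against 1.53 ± 0.0984 FPKM in untreated libraries (1.39, adjusted p = 2.82e-07). In LPS+anti-CD36 libraries it stood at 4.30 ± 0.0950 FPKM, above the 1.77 ± 0.0678 FPKM of anti-CD36 libraries (0.94, adjusted p = 8.37e-06) and below LPS (−0.31, adjusted p = 0.0481). Of its relatives Ppara was listed at 0 and Pparg, known to drive Fabp4, Lpl and Cd36 in macrophages, was at 0.0225 FPKM or less in every library. The coactivator Ppargc1b fell to 1.99 ± 0.194 FPKM in LPS, against 3.87 ± 0.278 FPKM in untreated libraries (−0.70, adjusted p = 3.18e-05). Dbi, the acyl-CoA binding protein, was higher in LPS+anti-CD36 at 92.4 ± 4.19 FPKM than in LPS at 68.6 ± 9.20 FPKM (0.43, adjusted p = 0.0451). Its LPS level was called lower than the 101 ± 17.4 FPKM of untreated libraries (−0.55, adjusted p = 0.00417). Anti-CD36 libraries held 115 ± 7.99 FPKM of Dbi, and LPS+anti-CD36 versus anti-CD36 was not called (−0.31, adjusted p = 0.0714). Sel1l, needed for lipoprotein lipase to leave the ER, was lower in LPS+anti-CD36 at 11.8 ± 0.513 FPKM than in LPS at 16.2 ± 1.82 FPKM (−0.42, adjusted p = 0.0196). For Ppard, Dbi, Sel1l and Acsbg1 the changes between LPS+anti-CD36 and LPS were not followed through the alternatives. Over all genes, changes in that comparison had Spearman correlations of 0.37 with GC content and −0.50 with gene length.

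Fabp4 and Lpl had the widest range of group means among the 9, at 3.30 and 1.37 on the log2(FPKM + 1) scale. The tested genes nearest to Fabp4 over the 12 libraries, by the root mean square difference of log2 values relative to the untreated mean, were Slfn2 (0.117), Glrx (0.130), Cth (0.167) and Ms4a6d (0.174). Slfn2, for example, averaged 416 FPKM in LPS+anti-CD36, 342 in LPS, 49.3 in anti-CD36 and 43.8 in untreated libraries. The nearest to Lpl were Ddx60 (0.0943), Parp14 (0.114), Atxn1 (0.123) and Klf6 (0.129), and Klf6 averaged 15.5 FPKM in LPS+anti-CD36, 27.4 in LPS, 9.20 in anti-CD36 and 9.62 in untreated libraries.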

How the data were processed

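RNA-seq libraries of RAW264.7 cells were analysed from 1 table of gene values. The deposited values are the authors' FPKM. HISAT2 2.0.5 is named in the submitters' processing notes, with the builds mm39 and hg38 listed without roles, while counter, annotation and filters are not given in the sources used here. Of 31801 entries, 82 repeated symbols were left out, keeping the entry of highest mean. Of 17645 entries above 0 with a GENCODE M21 exon-union length, 94.5% were whole fragments in every library within 0.005, which gave the depths. Il6 had the same values as the entry Gm10874 in 6 libraries and was tested only in LPS+anti-CD36 versus LPS.

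Genes reaching 1 FPKM in 3 or more libraries were tested as log2(FPKM + 1) with limma 3.58.1 (R 4.3.3), in 1 fit of 4 group means with an intensity trend, Benjamini-Hochberg adjusted over all genes tested. The fit was also run on simulated fragment counts with independent noise per gene and library. These held no deviation shared by replicate number and no GC or length trend, and the outcome is not given here. Python 3.11.15 with numpy 2.4.6 and pandas 2.3.3 handled tables. Genes named were the 9, Cd36, up to 6 called related genes of smallest adjusted p per comparison, and the 4 genes nearest to the 2 widest-ranging of the 9; other names (markers, untested relatives, sequence neighbours) were chosen after their values were seen. The 9 genes and all lists were chosen with earlier results of these data known. Alternatives covered pseudocount, filters, scaling, prior, GC and length, replicate block, samples in the fit and each library left out; voom weights on recovered fragments were chosen after seeing the data.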

Additional observations from a re-analysis of the deposited data

How the results depend on the processing

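The LPS calls of Fabp4, Lpl, Acsl4 and Acsl5 kept their direction and their side of the threshold in both LPS comparisons under every alternative run, and so did Acsl1 in LPS versus untreated wherever it was tested. No called change of the 9 genes took the other sign. The number of the 9 called stayed within 1.5 times in LPS versus untreated (5 to 8 with 1 library left out) and in LPS+anti-CD36 versus anti-CD36 (6 to 8). With the replicate number as a block, Fabp5 (adjusted p = 0.019) and Acsl3 (0.014) were also called in LPS versus untreated, and Acsl3 (0.00698) in LPS+anti-CD36 versus anti-CD36. For anti-CD36 versus untreated the number of the 9 called was 1, Acsl4, with the replicate number as a block, with or without the GC and length trend removed. For LPS+anti-CD36 versus LPS it was 1 (Lpl) with median-of-ratios scaling and 2 (Lpl and Slc27a4) with the GC and length trend removed. It was 3 (Lpl, Acsl3 and Fabp4) with the block, 4 (these and Slc27a4) with both, and 0 to 3 with 1 library left out. For the interaction it was 1, Lpl, with the block and the trend removed. The cause was not tested.

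Requiring a mean of 5 FPKM left out Acsl1 and Cd36. It tested 6574 genes in place of 10276 (6575 in place of 10277 in LPS+anti-CD36 versus LPS), so its counts of calls come from fewer genes. Over all genes tested it gave 3372 calls in LPS versus untreated and 3217 in LPS+anti-CD36 versus anti-CD36, against 5113 and 4882. In LPS+anti-CD36 versus LPS it gave 1060 and in the interaction 66, against 1592 and 132. In anti-CD36 versus untreated the 35 calls became 12 with TPM scaling, 381 with the trend removed, 1164 with the block, 971 with both, 0 in a fit of these groups alone and 1 to 131 with 1 library left out (131 without LPS replicate 1, 18 or fewer without any other library except LPS replicate 3 and untreated replicate 1). In LPS+anti-CD36 versus LPS they became 2462, 3646, 3538, 940 and 586 to 3980 under the same alternatives other than TPM scaling, 3980 again without LPS replicate 1 and 849 or fewer without any other library of the compared groups. In the interaction they became 366 with the trend removed, 212 with the block, 528 with both, 70 with voom on recovered fragments and 77 to 161 with 1 library left out (81 or fewer without any LPS+anti-CD36 library, LPS replicate 2 or anti-CD36 replicate 3, and 83 without untreated replicate 2). Same-numbered libraries correlated in their deviations from the group means over 0.1 in 10 of 18 pairs (−0.32 to 0.81). All 6 pairs of replicates 1 were at 0.45 to 0.78, and 7 of 12 libraries correlated best with one of their own number. The labels do not say whether the numbers pair the samples, and these correlations cannot show what the design was. The fewest fragments behind a value of the 9 genes were 176, for Fabp4, a counting error of 7.54%. No test of depth was made.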
